A study of Mus musculus with 6 samples.

Results

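The genes described here are 10 genes of amino acid, serine and folate-dependent synthesis and of the response to the transcription factor ATF4: Asns, Phgdh, Psat1, Psph, Shmt2, Mthfd2, Aldh18a1, Atf4, Trib3 and Chac1. Each was taken from the row of the value table that carried that symbol alone, and each of the 10 had exactly 1 such row, among 21789 such rows for 19938 genes. The genes were chosen by their pathway with the transgenic and wild-type values of these same arrays already known, and the row of each was selected on its mean over all 6 arrays, so their group differences describe these hearts and are not independent evidence. The measured hearts came from male FVB mice that all underwent transverse aortic constriction (TAC), a surgical narrowing of the aorta that loads the left ventricle with pressure, at 8 weeks of age, with collection after 14 weeks. In 3 mice the adenosine A2a receptor (A2a-R) was over-expressed from a cardiac-specific, inducible transgene (A2a-R TG), and 3 littermates were wild type (WT). The sources used here name neither the promoter nor the inducing agent. Hearts without surgery were not analysed here, so the transgene cannot be told apart from its interaction with pressure load. The level of the A2a receptor gene itself was not analysed here either, so the genotype labels were not checked against it.

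Each heart was read on 1 Affymetrix Mouse Gene 1.0 ST array, and values are log2 RMA values, a scale on which a difference of 1 is a doubling. Means of the arrays lay between 7.03 and 7.06. Across rows, which are not independent replicates, Pearson's r was 0.9926 to 0.9957 between arrays of different genotype and 0.9958 to 0.9973 within a genotype. All 12 cardiomyocyte markers examined, such as Myh6, Tnnt2 and Pln, lay at or above the 99.2 percentile of row means. Of these 0 passed the test between genotypes, with 5 higher and 7 lower in A2a-R TG hearts and log2 differences of -0.13 to 0.25. RMA compresses very bright signals, so these values do not bound a change in cardiomyocyte content. In whole hearts, fewer cells of a type and less RNA per cell cannot be told apart.

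Asns makes asparagine from aspartate and glutamine. Phgdh, Psat1 and Psph carry out the successive steps that turn the glycolytic intermediate 3-phosphoglycerate into serine, Shmt2 splits serine into glycine and a folate-bound carbon unit inside mitochondria, and Mthfd2 oxidises that unit on its way to formate. ATF4 is made when kinases that sense amino acid shortage, unfolded protein or mitochondrial trouble phosphorylate the initiation factor eIF2 alpha. Its output is set largely at translation, so the level of Atf4 mRNA need not follow it. ATF4 pairs with C/EBP proteins on C/EBP-ATF response elements and switches on the genes named above, together with Trib3, a pseudokinase that restrains ATF4, and Chac1, which degrades glutathione.

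The promoters of 4 of the genes are shown because they carry the element or belong to the pair of genes that stood highest in the transgenic hearts. All are RefSeq sequences of build GRCm38.p6, 300 bases long, from 250 bases before to 50 after the transcript start, printed along the gene's own strand. Capitals mark matches to the core of the C/EBP-ATF response element, TGATGNAA, on either strand.
Asns: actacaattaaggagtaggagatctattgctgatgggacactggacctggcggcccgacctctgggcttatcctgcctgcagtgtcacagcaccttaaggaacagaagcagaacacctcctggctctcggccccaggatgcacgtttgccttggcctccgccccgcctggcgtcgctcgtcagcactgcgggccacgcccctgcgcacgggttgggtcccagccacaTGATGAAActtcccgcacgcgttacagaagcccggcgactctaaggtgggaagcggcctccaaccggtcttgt
Trib3: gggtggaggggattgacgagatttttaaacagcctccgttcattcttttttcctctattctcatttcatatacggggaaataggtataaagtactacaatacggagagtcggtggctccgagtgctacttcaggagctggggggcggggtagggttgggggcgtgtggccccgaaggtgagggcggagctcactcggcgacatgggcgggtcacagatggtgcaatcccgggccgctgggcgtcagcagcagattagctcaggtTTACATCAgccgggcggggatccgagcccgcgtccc
Chac1: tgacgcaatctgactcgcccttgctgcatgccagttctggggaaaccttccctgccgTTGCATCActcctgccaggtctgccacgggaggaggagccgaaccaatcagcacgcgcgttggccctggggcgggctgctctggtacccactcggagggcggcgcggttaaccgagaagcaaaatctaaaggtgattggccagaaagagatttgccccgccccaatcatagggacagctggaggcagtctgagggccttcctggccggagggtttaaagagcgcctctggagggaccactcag
Mthfd2: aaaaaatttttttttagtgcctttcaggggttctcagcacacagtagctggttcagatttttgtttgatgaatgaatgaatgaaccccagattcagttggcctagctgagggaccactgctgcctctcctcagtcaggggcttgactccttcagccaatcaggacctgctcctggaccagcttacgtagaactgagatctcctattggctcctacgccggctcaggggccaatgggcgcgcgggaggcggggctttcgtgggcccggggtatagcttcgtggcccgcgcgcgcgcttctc
The Asns window is chr6:7693160-7693459 on the minus strand, Trib3 is chr2:152344011-152344310 on the minus strand, Chac1 is chr2:119350992-119351291 on the plus strand and Mthfd2 is chr6:83317555-83317854 on the minus strand. Counting from the first transcribed base as 1, with no 0, the match TGATGAAA in Asns spans -23 to -16. In the human ASNS gene an element of this kind is known to carry the response to amino acid shortage. Chac1 has TTGCATCA, the element read on the opposite strand, at -193 to -186, and Trib3 has TTACATCA at 15 to 22. The 10 genes have 11 promoter windows in the table, since Psat1 has 2, and 3 of the 11 held the core, against 3.97% of all 32851 windows of the same length. The full cyclic AMP response element TGACGTCA, on which cyclic AMP, the second messenger of the A2a receptor, is known to act, was in 0 of the 11 windows and in 1.79% of all windows. The endoplasmic reticulum stress element, CCAAT followed after a spacer of 9 bases by CCACG, was in 0 of the 11 and in 0.119% of all windows. At shares this low most sets of 11 windows would hold no match, so nothing is concluded from the lack of these 2 elements. The motifs do not overlap in these windows. A match is a stretch of letters, not a measured binding site, and the Mthfd2 window holds none of these letters.

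Asns and Mthfd2 stood apart from the other 8 genes: in both, every transgenic heart lay above every wild-type heart. Asns had log2 values of 8.18, 8.08 and 8.27 in A2a-R TG hearts, against 7.53, 7.67 and 7.57 in WT hearts. The lowest transgenic heart was 0.41 above the highest wild-type heart, a gap wider than the spread within either genotype. Asns averaged 8.18 ± 0.10 in A2a-R TG and 7.59 ± 0.07 in WT hearts (SD, n = 3 each), and it rose by 0.59 ± 0.07 (SE) on the log2 scale, or 1.5-fold with a 95% interval of 1.34 to 1.68. The adjusted p of Asns was 0.0101 in limma, over all 21789 tested rows. It was 0.0504 without WT replicate 3 and 0.016 to 0.0474 without any other single array. By upward difference 104 rows stood above Asns.

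**Figure D1:**
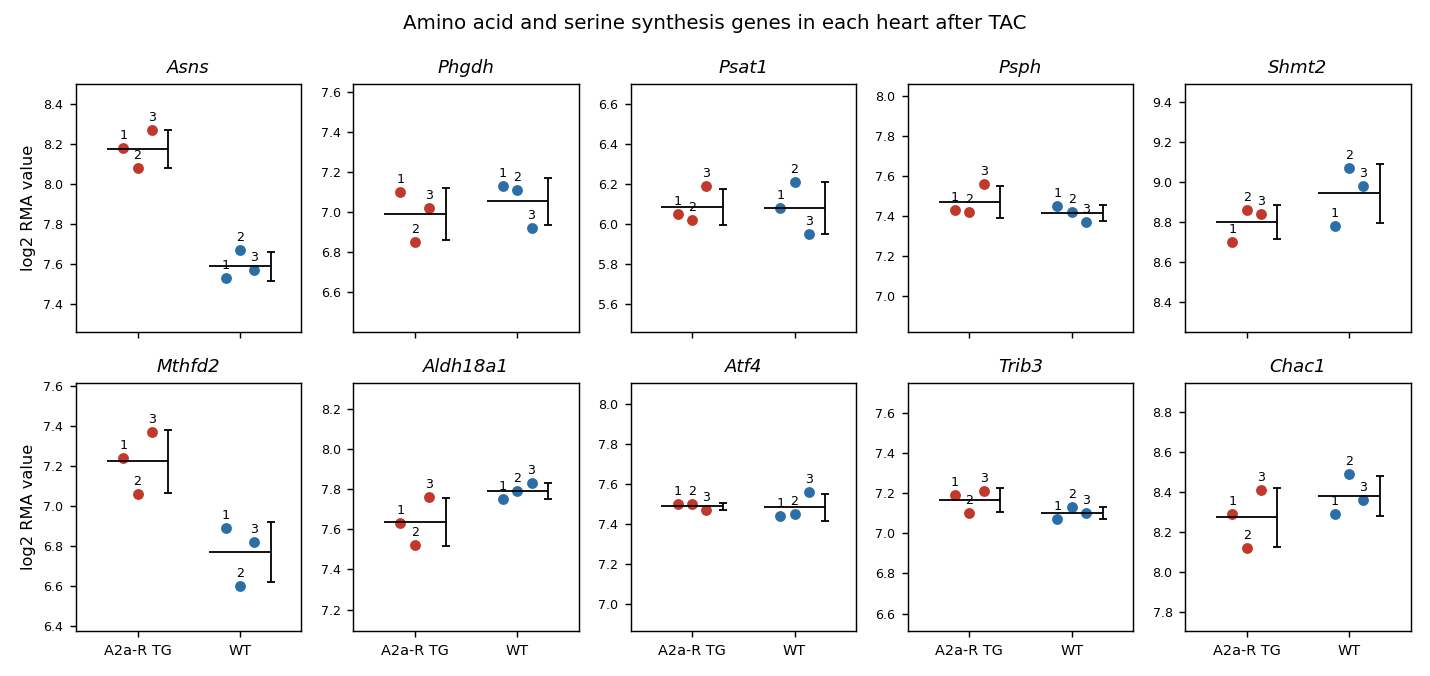
Log2 RMA value of each gene (y axis, the same height of scale in every panel) in the 3 A2a-R TG hearts (red) and the 3 WT hearts (blue), numbered by replicate; horizontal lines are group means and bars 1 SD. Asns and Mthfd2 are the panels in which the genotypes do not overlap, while the other 8 panels show overlapping hearts.

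Mthfd2 had log2 values of 7.24, 7.06 and 7.37 in A2a-R TG hearts, against 6.89, 6.60 and 6.82 in WT hearts. The groups did not overlap, but the gap of 0.17 was close to the SD within each genotype. The mean was 7.22 ± 0.16 in A2a-R TG and 6.77 ± 0.15 in WT hearts (SD, n = 3 each), a difference of 0.45 ± 0.10 (SE), or 1.37-fold with a 95% interval of 1.16 to 1.61. Mthfd2 missed the threshold, with a limma adjusted p of 0.0987. It passed with arrays centred on their medians (0.0482), without the dimmest 40% of rows (0.0417), with a trended and robust prior (0.0422) and with array weights (0.0456), so its call depends on these settings. With any 1 array left out the adjusted p was between 0.091 and 0.259.

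**Figure D2:**
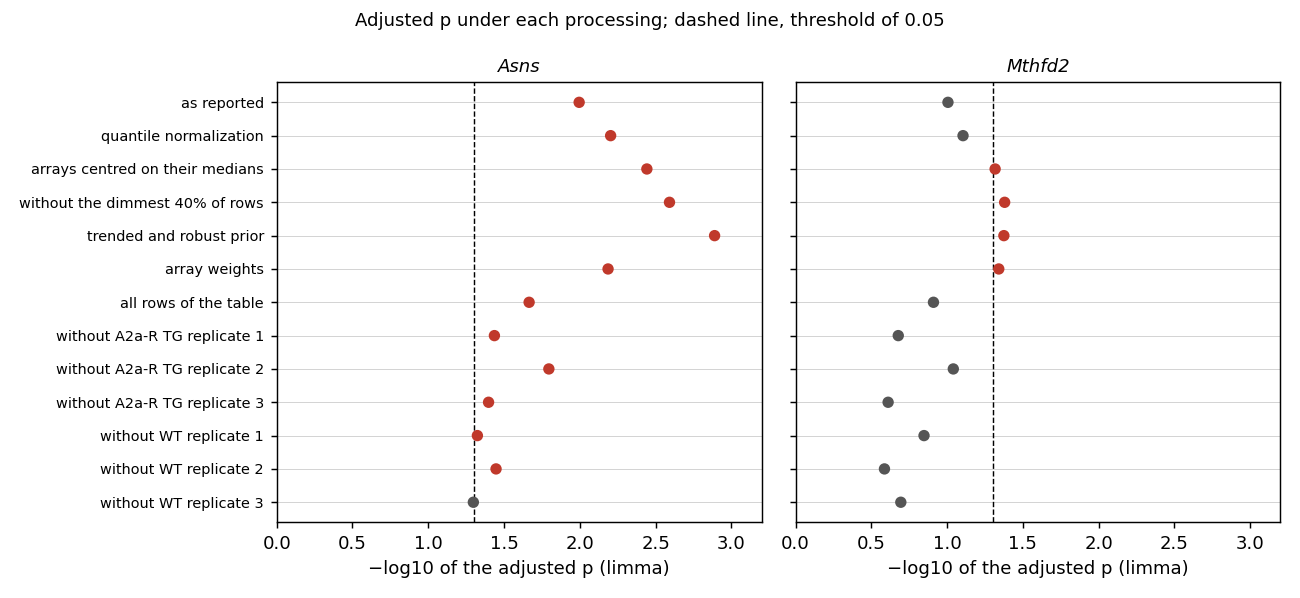
Adjusted p of Asns and Mthfd2 from limma (x axis, −log10 scale) as reported, under the settings listed on the axis and without each array in turn; the dashed line is the threshold of 0.05 and red points pass it. Of the settings listed, Asns misses the threshold without WT replicate 3, and Mthfd2 passes in 4.

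In all, 1 of the 10 genes passed upward (Asns), 0 passed downward and 9 did not pass. Over all tested rows 0.519% passed upward, 0.441% downward and 0.959% in either direction. Since the genes were listed with this contrast known, nothing is read from the difference between these shares. The groups did not overlap in 2 of the 10 genes, both higher in transgenic hearts, against 20.3% of all tested rows, of which those higher without overlap made up 7.73% and those lower 12.6%. The median log2 difference of the 10 genes was 0.007, beside -0.013 over all tested rows with quartiles of -0.083 and 0.063. Beside the pair of genes that stood higher, the differences of the other 8 were all smaller than 0.2 in size.

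The 3 enzymes of serine synthesis did not pass and lay close to 0. Phgdh, which commits 3-phosphoglycerate to serine, had 7.10, 6.85 and 7.02 in A2a-R TG hearts, against 7.13, 7.11 and 6.92 in WT hearts. The hearts were interleaved, and the log2 difference was -0.06 with a 95% interval of -0.26 to 0.14 (limma adjusted p = 0.797). A further row, shared by Phgdh and the pseudogene Gm6756, differed by 0.17 and cannot be assigned to either. Psat1, the aminotransferase of the middle step, had 6.05, 6.02 and 6.19 in A2a-R TG hearts, against 6.08, 6.21 and 5.95 in WT hearts. Its difference was 0.01 with an interval of -0.18 to 0.20 (limma adjusted p = 0.982). Psph, the phosphatase that releases serine, had 7.43, 7.42 and 7.56 in A2a-R TG hearts, against 7.45, 7.42 and 7.37 in WT hearts. A single transgenic heart, replicate 3, lay above the wild-type range, and the difference was 0.06 with an interval of -0.09 to 0.20 (limma adjusted p = 0.738). The intervals of these 3 genes end below the 1.34-fold that bounds the rise of Asns from below, so changes of that size in these array values were outside the 95% intervals. The Psat1 row lies among the dimmest 40% of tested rows, where RMA compresses signals, so its interval does not bound the change in mRNA.

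Shmt2, which feeds the folate-bound carbon to Mthfd2, lay on the other side of 0 from Mthfd2. It had 8.70, 8.86 and 8.84 in A2a-R TG hearts, against 8.78, 9.07 and 8.98 in WT hearts. WT replicate 1 lay among the transgenic hearts, and the difference was -0.14 with a 95% interval of -0.34 to 0.06 (limma adjusted p = 0.493). The difference between the responses of Shmt2 and Mthfd2 was not tested. Aldh18a1, which opens proline synthesis from glutamate, had 7.63, 7.52 and 7.76 in A2a-R TG hearts, against 7.75, 7.79 and 7.83 in WT hearts. Transgenic replicate 3 overlapped the lowest wild-type heart by 0.01, and the difference was -0.15 with an interval of -0.32 to 0.01 (limma adjusted p = 0.377).

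Atf4 itself and its feedback and glutathione-degrading targets did not pass. Atf4 had 7.50, 7.50 and 7.47 in A2a-R TG hearts, against 7.44, 7.45 and 7.56 in WT hearts. All 6 hearts lay within 0.12 of each other, the narrowest range of the 10 genes, with a difference of 0.01 and a 95% interval of -0.13 to 0.14 (limma adjusted p = 0.976). Trib3 had 7.19, 7.10 and 7.21 in A2a-R TG hearts, against 7.07, 7.13 and 7.10 in WT hearts. Replicates 1 and 3 of the transgenic hearts lay above all wild-type hearts and replicate 2 among them, and the difference was 0.07 with an interval of -0.07 to 0.20 (limma adjusted p = 0.654). Chac1 had 8.29, 8.12 and 8.41 in A2a-R TG hearts, against 8.29, 8.49 and 8.36 in WT hearts. The hearts of the genotypes overlapped, and the difference was -0.11 with an interval of -0.31 to 0.10 (limma adjusted p = 0.638). Trib3 and Chac1 hold the same promoter core as Asns, and their intervals lie below the interval of Asns, which starts at 0.42.

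**Figure D3:**
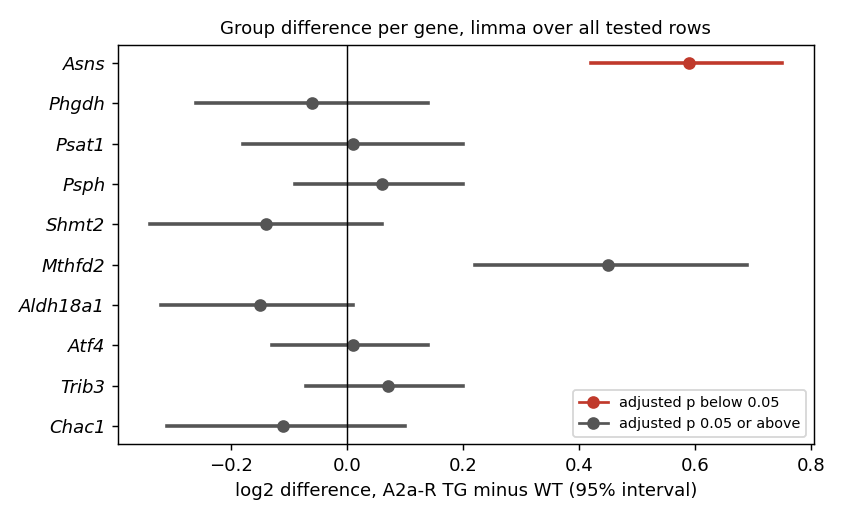
Log2 difference of each gene, A2a-R TG minus WT (x axis), with its 95% interval from limma and n = 3 hearts a group; red marks an adjusted p below 0.05. The interval of Asns runs from 0.42 to 0.75 and that of Mthfd2 from 0.22 to 0.69, while the intervals of the other 8 genes include 0.

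Genes of the same pathways that were not among the 10 were taken from 8 lists, drawn up with earlier results known, which held 144 distinct genes with a row. Of these 2 rose, 0 fell and 142 did not pass. That is 1.39%, against 0.959% of all tested rows, and the median log2 difference was -0.033. An unadjusted limma p below 0.05 was found in 26 of the 144, against 14.8% of all tested rows. Both genes that rose are amino acid carriers. Slc7a11, the cystine carrier of the cystine and glutamate exchanger, had 5.64, 5.71 and 5.85 in A2a-R TG hearts, against 4.90, 4.96 and 4.93 in WT hearts. Every transgenic heart was clear of the wild-type hearts, and Slc7a11 rose by 0.80 ± 0.07 (SE, limma adjusted p = 0.00286), although its row lies among the dimmest 40% of tested rows. Slc7a1, a carrier of arginine and lysine, had 9.37, 9.47 and 9.49 in A2a-R TG hearts, against 8.76, 8.84 and 8.99 in WT hearts. It rose by 0.58 ± 0.07 (limma adjusted p = 0.0126), a call that was lost without A2a-R TG replicate 3 (adjusted p = 0.0583) or WT replicate 2 (0.0714). The promoter window of Slc7a11 held the C/EBP-ATF core at -66 to -59 and again, on the opposite strand, at -47 to -40, and neither of the 2 windows of Slc7a1 held it.

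The remaining 24 of 26 ATF4 target genes did not pass, and the list had 13 genes higher and 13 lower with a median of -0.003. Of the 26 genes, 9 had an unadjusted limma p below 0.05, against 14.8% of all tested rows. Without overlap 5 genes were higher and 5 lower, against 7.73% and 12.6% of all tested rows. Slc38a2, a carrier of small neutral amino acids that ATF4 is known to induce, had 11.68, 11.46 and 11.68 in A2a-R TG hearts, against 12.24, 11.94 and 11.97 in WT hearts. It lay lower in every transgenic heart without passing (-0.44 ± 0.10 SE, limma adjusted p = 0.0964). Slc38a2 passed downward without the dimmest 40% of rows (0.0405) and with the trended and robust prior (0.0227). Slc1a4, another neutral amino acid carrier, differed by -0.23 ± 0.06 (adjusted p = 0.14) and Ero1a, an oxidase of the endoplasmic reticulum, by -0.22 ± 0.06 (adjusted p = 0.125). Ero1a passed downward in the same pair of fits (0.0478 and 0.0442). On the other side of 0, Ddit4 lay at 0.41 ± 0.11 and Slc6a9 at 0.22 ± 0.06 (SE, limma adjusted p = 0.157 and 0.156). Neither passed, and in both every transgenic heart lay above every wild-type heart. Carriers that rose and carriers that lay lower thus stood side by side within this list.

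In the serine, glycine and folate list 0 of 18 genes passed, 14 were lower and 4 higher, and the median was -0.085. The smallest p-values belonged to Mtfmt, which formylates the mitochondrial initiator tRNA, at -0.19 ± 0.07 (SE), Mthfd1, the cytosolic folate enzyme, at -0.13 ± 0.06, and Gcsh, a subunit of glycine cleavage, at -0.21 ± 0.09 (limma adjusted p = 0.261, 0.331 and 0.334). None of these passed, and Mthfd2 stood on the opposite side of 0 from all 3. Without overlap 1 gene of this list was higher and 4 lower, against 7.73% and 12.6% of all tested rows. The higher gene was Aldh1l2, which lay on the side of Mthfd2 at 0.20 ± 0.09 without passing (limma adjusted p = 0.349). In the list of asparagine, aspartate, glutamate and proline genes 0 of 14 passed, with 7 higher and 7 lower and a median of -0.013. Oat, the ornithine aminotransferase of mitochondria, had 10.58, 10.52 and 10.57 in A2a-R TG hearts, against 10.78, 10.84 and 10.84 in WT hearts. Its groups were clear of each other at -0.26 ± 0.05 (limma adjusted p = 0.0809), and Oat passed downward without the dimmest 40% of rows (0.0264) and with the trended and robust prior (0.0109). Aldh4a1, which forms glutamate in the last step of proline breakdown, was at -0.26 ± 0.09 (adjusted p = 0.238) and Gpt, an alanine aminotransferase, at 0.21 ± 0.08 (adjusted p = 0.296).

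Upstream of ATF4, 0 of 25 genes for eIF2 alpha kinases, phosphatases, exchange factor subunits and ATF4 partners passed, with a median of -0.027. The kinases Eif2ak4, which senses uncharged tRNA, and Eif2ak3, which senses unfolded protein, lay at -0.15 ± 0.05 and -0.14 ± 0.06 (SE, limma adjusted p = 0.261 and 0.334). Impact, an inhibitor of Eif2ak4 signalling, lay at -0.18 ± 0.07 (adjusted p = 0.292). Of the cytosolic aminoacyl-tRNA synthetases, several of them known ATF4 targets, 0 of 18 passed, with 7 higher and 11 lower and a median of -0.038. Lars lay at -0.18 ± 0.06, Iars at -0.15 ± 0.06 and Kars at -0.10 ± 0.06 (limma adjusted p = 0.23, 0.265 and 0.463).

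Of 20 genes of the ATF6 and XBP1 branches of the unfolded protein response 0 passed, and the median was -0.028. Sdf2l1, a cofactor of the chaperone BiP, had 8.24, 8.30 and 8.48 in A2a-R TG hearts, against 8.01, 7.82 and 7.74 in WT hearts. The genotypes did not overlap at 0.48 ± 0.09 (SE, limma adjusted p = 0.0605). Sdf2l1 passed upward after quantile normalization (0.0459), with median centring (0.0281), without the dimmest 40% of rows (0.0229), with the trended and robust prior (0.0129) and with array weights (0.033). Dnajb11 lay at -0.19 ± 0.06 and the sensor Ern1 at -0.18 ± 0.06 (adjusted p = 0.207 and 0.253). Of 13 mitochondrial stress genes 0 passed, with a median of -0.06; the protease subunit Afg3l2 lay at -0.15 ± 0.06, the chaperone Hspd1 at -0.13 ± 0.06 and Clpx at -0.18 ± 0.09 (limma adjusted p = 0.275, 0.367 and 0.419). Of 14 proliferation markers 0 passed, 11 were lower and 3 higher, and 0 had an unadjusted p below 0.05, against 14.8% of all tested rows. Kif11, Ccnb2 and Mcm2, the smallest p-values among them, lay at -0.16 ± 0.07, -0.13 ± 0.08 and -0.08 ± 0.06 (limma adjusted p = 0.372, 0.499 and 0.63).

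**Figure D4:**
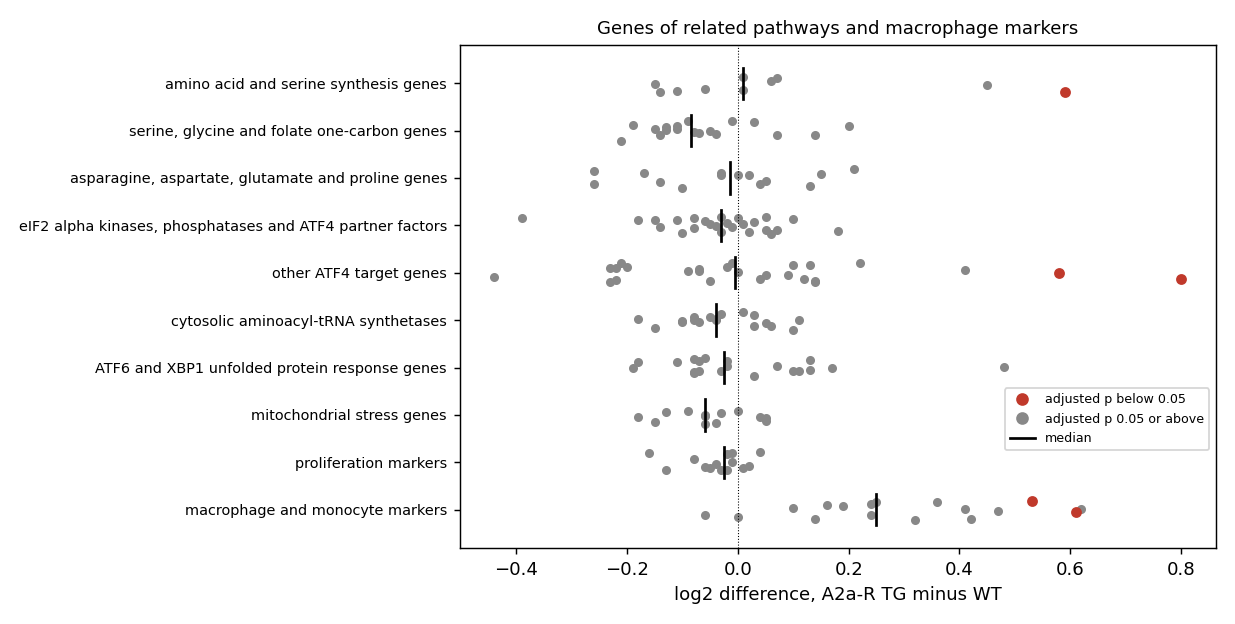
Log2 difference, A2a-R TG minus WT (x axis), of every measured gene of the 10 described here, of the 8 pathway lists and of the macrophage markers; each point is a gene, red marks an adjusted p below 0.05, vertical bars are medians and points are spread vertically for legibility. Slc7a11 and Slc7a1 are the red points among the ATF4 targets, and the macrophage markers are centred at 0.25.

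Markers of macrophages and monocytes were mostly higher in the transgenic group, as Asns and Mthfd2 were. Of 17 such markers 16 were higher in the transgenic hearts, with a median of 0.25, and 12 did so without overlap, against 7.73% of all tested rows that were higher without overlap. Against 0.519% of all tested rows, 2 of the 17 rose, Lgals3 by 0.61 ± 0.06 and Lyz1 by 0.53 ± 0.08 (SE), at limma adjusted p-values of 0.00423 and 0.0271. The other 15 missed the threshold. The mean of the list was 8.17, 8.25 and 8.19 in A2a-R TG replicates 1, 2 and 3 and 7.82 to 7.95 in WT hearts. Replicate 2, the highest there, was the lowest transgenic heart for Asns and for Mthfd2. Of the 2 markers that rose, Lgals3 was also lowest in replicate 2 of the transgenic hearts (8.15, 8.10 and 8.21). Lyz1 was highest in that replicate (7.36, 7.37 and 7.30). Cd68 lay at 0.62 ± 0.12, Adgre1 at 0.25 ± 0.09, Cd163 at 0.00 ± 0.07 and Itgam at -0.06 ± 0.08. The part of these cells in the values of Asns, Mthfd2 and Slc7a11 was not tested. The call of Lyz1 was lost without WT replicate 2 or 3 or any transgenic replicate (adjusted p up to 0.12). Of the other markers, Acta2 from the smooth muscle and pericyte list rose by 0.73 ± 0.09 (SE, limma adjusted p = 0.0106). Il7r from the T, NK and B cell list rose by 0.57 ± 0.07 (limma adjusted p = 0.00995). Alas2, from the red blood cell list, fell by 0.77 and Nppa, from the atrial list, fell by 1.18 (limma adjusted p = 0.00486 and 0.0456). Each was the only gene of its list that passed. Of 10 smooth muscle and pericyte genes 4 were higher and 6 lower, with a median of -0.01. Of 11 T, NK and B cell genes 5 were higher and 6 lower, with a median of -0.003. Of 3 red blood cell genes 1 was higher and 2 were lower. The atrial list had 6 genes lower and 1 higher: Myl4, Myl7 and Sln lay at -0.17, -0.14 and -0.01 and Tbx5 at 0.34. A change in atrial tissue was not tested. Acta2 was no longer called without WT replicate 1 or 3 (0.0594 and 0.0565), Il7r without WT replicate 3 (0.05), and Nppa without any 1 of the 6 arrays (0.0636 to 0.124), with the trended and robust prior (0.114) or over all rows of the table (0.0743). The fibroblast, endothelial, adipocyte and neutrophil lists had 0 genes that passed and medians of -0.015, -0.072, -0.073 and -0.003.

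Over the 6 arrays, the genes whose values followed Asns most closely were Cd24a, Lgals3, Aldh1a2, Pirt and Il7r. Likeness was the root mean square difference between values centred on each gene's own mean, over 1 row for each gene, and it was 0.049 for Cd24a, a surface glycoprotein, and 0.057 for Lgals3, the lectin galectin-3. It was 0.066 for Aldh1a2, which makes retinoic acid, 0.07 for Pirt and 0.073 for Il7r. The genes nearest to Mthfd2 were Cyp4a14 (0.053), Tmem100 (0.072), Chil1 (0.084), Cd44 (0.085) and Klhl13 (0.089). Cd24a had 7.67, 7.72 and 7.85 in A2a-R TG hearts, against 7.12, 7.20 and 7.10 in WT hearts. All 10 of these genes were picked for a pattern that contains the genotype difference, so their own differences are no further result. None of the 10 genes of the synthesis set was among the nearest to Asns or Mthfd2.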

How the data were processed

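Expression was measured in 6 hearts, 3 of each genotype, on 1 array each. Per the labels' protocols, Trizol was used for extraction and 100 ng of RNA for labelling. The deposited values are log2 values that, per the submitters' processing notes, the authors made with RMA and Partek; the sources used here give no versions, settings or genome build. RMA forces similar distributions on the arrays and compresses dim and very bright signals. Genes were named from the platform annotation; of 28853 rows, 21789 had 1 symbol, 1621 several and 5443 none, and symbols were looked up in RefSeq of GRCm38.p6 by Entrez identifier (21698 rows matched, 0 changed). Genes with several rows were represented by the row of highest mean.

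All rows with 1 symbol were fitted with limma 3.58.1 in R 4.3.3 (lmFit, eBayes, transgenic minus wild type, no covariate), with p-values adjusted by Benjamini-Hochberg and a threshold of 0.05; the code was also tested on simulated data. The median SE of a log2 difference was 0.0731, and precision is limited by the small number of arrays. The design text gives 3 mice a group, so p-values measure the spread between animals. The genes and lists were chosen with earlier results of these data known. Most genes outside the 10 were named by rule. From each pathway list these were all that passed and the 3 smallest p-values. All markers that passed, the 5 genes nearest to Asns and the 5 nearest to Mthfd2 were also named. Vldlr, Herpud1, Fgf21, Gars, Tars and Yars were named for the C/EBP-ATF core in their promoter windows. Cd68, Adgre1, Cd163, Itgam, Myh6, Tnnt2, Pln, Myl4, Myl7, Sln, Tbx5, Ddit4, Slc6a9 and Aldh1l2 were named after their values were seen. Alternatives were a replicate block, quantile normalization, median centring, array weights, a trended and robust prior, a fit without the dimmest 40% of rows, all rows, gene means, an adjusted p of 0.10 and leaving out each array.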

Additional observations from a re-analysis of the deposited data

Results flagged for a closer look

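A row annotated with both Phgdh and Gm6756, a transcribed pseudogene, was left out of the comparisons because its signal cannot be assigned to either. It had log2 values of 7.60, 7.55 and 7.53 in A2a-R TG hearts, against 7.47, 7.37 and 7.34 in WT hearts. Every transgenic heart lay above every wild-type heart, which singled the row out. The log2 difference was 0.17 ± 0.06 (SE), with a limma adjusted p of 0.273 in a fit of all rows. The row of Phgdh alone differed by -0.06 with overlapping hearts.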

How the results depend on the processing

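Of the 10 genes 1 was called; the count was 0 with the replicate number as a block, 2 with median centring, without the dimmest 40% of rows, with a trended and robust prior, with array weights or at an adjusted p below 0.10, and 0 to 1 with single arrays left out. The second gene in these fits was Mthfd2. The 209 rows called over the table became 97 with the block, 493 without the dimmest rows, 579 with the trended prior, 476 at 0.10 and 84 to 147 with single arrays left out (84 without WT replicate 2, 92 without WT replicate 3, 116 and 121 without A2a-R TG replicates 2 and 3, and 124 without WT replicate 1). The 2 pathway genes called became 5 without the dimmest rows, 7 with the trended prior and 1 to 3 with single arrays left out; 1 was without WT replicate 2. Without the dimmest rows and with the trended prior, the genes gained included Sdf2l1 (higher) and Slc38a2, Ero1a and Oat (lower). Small differences that were not called changed sign: Psat1 was at -0.010 after quantile normalization, -0.011 with array weights and -0.058 to 0.072 with single arrays left out, Phgdh at -0.13 to 0.007 and Atf4 at -0.015 to 0.045. Of 129 values of the 10 genes under alternatives, 116 kept direction and side of the threshold. With the replicate block the calls of Asns (adjusted p = 0.0536) and Lyz1 (0.0575) were lost. Equal numbers did not pair the hearts: deviations of same-numbered hearts correlated at 0.155, -0.011 and -0.104. Slc7a11 passed in every fit that held it; its row is among the dimmest 40% and was not in that one. Gene means left the 10 genes' values as they were, since each has 1 row. The causes were not tested.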

Other observations

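Within the A2a-R TG group the hearts kept a common order in most of the 10 genes, which was noticed after the values were seen. Replicate 3 was above replicate 1 and replicate 1 above replicate 2 in 7 of the 10 genes (Asns, Psat1, Psph, Mthfd2, Aldh18a1, Trib3 and Chac1), against 19.5% of all tested rows. This is a description of 3 hearts, and nothing in the labels orders them.

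The C/EBP-ATF core was found in the promoter windows of 5 of the 19 other ATF4 targets with a window (Fgf21, Herpud1, Slc1a4, Slc7a11 and Vldlr) and of 4 of 11 aminoacyl-tRNA synthetases (Gars, Iars, Tars and Yars). Over all windows the share was 3.97%, counted by window and not by gene. The core was in 0 of 16 serine, glycine and folate genes and 1 of 10 asparagine, aspartate, glutamate and proline genes. It was in 3 of 20 eIF2 alpha and ATF4 partner genes and 2 of 10 mitochondrial stress genes. The unfolded protein response genes (0 of 17) and proliferation markers (0 of 13) held none. Among the 9 matched targets and synthetases Slc7a11 passed upward, and the other 8 did not pass. Of these, Herpud1, Gars, Tars and Yars lay at 0.14 ± 0.10, 0.06 ± 0.07, 0.03 ± 0.06 and 0.01 ± 0.09 (SE), and Vldlr, Slc1a4, Iars and Fgf21 at -0.21 ± 0.06, -0.23 ± 0.06, -0.15 ± 0.06 and -0.09 ± 0.06.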
